A study of Mus musculus with 10 samples.

Results

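The 10 genes described here encode enzymes of glycolysis: Hk1, Hk2, Gpi1, Pfkl, Pfkp, Aldoa, Pgk1, Pgam1, Eno1 and Ldha. They were taken by symbol from the count table, which lists 55536 genes, and all 10 were among the 20317 genes kept by the filter on low counts. The symbol Aldoa stands on 2 rows of that table. The row with nearly all of the reads was used (161305 reads over the 10 libraries, against 135 in the other), so 10 of the 11 rows that carry these symbols are reported.

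All 10 are annotated in build GRCm38 (GENCODE M21) as protein-coding genes. On the plus strand lie Pgk1 (ENSMUSG00000062070) at chrX:106187100-106203699, Pgam1 (ENSMUSG00000011752) at chr19:41911923-41918660, Eno1 (ENSMUSG00000063524) at chr4:150236721-150248879 and Ldha (ENSMUSG00000063229) at chr7:46841475-46855627. On the minus strand lie Hk1 (ENSMUSG00000037012) at chr10:62268855-62379908, Hk2 (ENSMUSG00000000628) at chr6:82725025-82774454 and Gpi1 (ENSMUSG00000036427) at chr7:34201330-34230336. The same strand carries Pfkl (ENSMUSG00000020277) at chr10:77986947-78010083, Pfkp (ENSMUSG00000021196) at chr13:6579768-6648777 and Aldoa (ENSMUSG00000030695) at chr7:126795234-126800751.

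Bulk RNA was sequenced from germ cells sorted by fluorescence out of female mouse gonads at E14.5, an age in days after mating. The libraries fell into 4 from Taf4b-deficient (infertile), 4 from Taf4b-heterozygous (fertile) and 2 from Taf4b-wildtype (fertile) fetuses, labelled as strain C57BL/6. The product of Taf4b belongs to a complex that starts transcription and is made mainly in the gonads, and the comparison asks how fetal oocytes differ without it. Parents were heterozygous for the Taf4b mutation and homozygous for an Oct4-EGFP transgene (B6;129S4-Pou5f1tm2Jae/J), so cells of every genotype carry that reporter and were sorted on the green signal it gives in germ cells. The labels do not say which part of Taf4b the mutation removes, nor do they tie each library to an animal of its own. The p-values therefore measure the spread between these libraries, which may in part be technical.

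Glycolysis splits glucose into pyruvate in the cytosol, yields a little ATP and supplies carbon for nucleotides, amino acids and lipids. Hexokinases (Hk1, Hk2) trap glucose as a phosphate, Gpi1 converts it to fructose phosphate, and phosphofructokinases (Pfkl, Pfkp) commit it to the pathway. Aldolase (Aldoa) then splits the sugar, Pgk1 makes ATP, Pgam1 shifts a phosphate, Eno1 removes water, and Ldha turns pyruvate into lactate. As background, mouse pluripotent stem cells are known for high rates of glycolysis, and female germ cells around this age switch off pluripotency genes and enter meiosis.

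Library totals ran from 28949924 to 44166320 reads. Levels are given as CPM, counts scaled to the TMM-corrected total of each library, for comparisons of 1 gene between libraries. The deposited TPM values, which take account of transcript length, serve for comparisons between genes. Taf4b stood at 56.1 to 64.9 CPM in the deficient libraries, below every library of the other genotypes. It had 144 to 234 CPM in the heterozygous libraries and 152 and 207 CPM in the wildtype libraries. Germ cell markers (7 of 7 detected, among them Dazl and Ddx4) summed to between 4499 and 6184 CPM in every library. Markers of pregranulosa cells summed to 12.9 to 32.7 CPM and those of stroma and mesothelium to 3.72 to 15.3 CPM.

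On the TPM scale, averaged over the 10 libraries, the enzymes differed in level. Aldoa was highest at 476 ± 138 TPM (SD over 10 libraries, as for the other levels in this paragraph). Next came Eno1 at 231 ± 77.0 TPM, Gpi1 at 223 ± 33.1 TPM, Pgk1 at 208 ± 40.8 TPM, Pgam1 at 194 ± 57.1 TPM and Ldha at 188 ± 35.3 TPM. These 5 neighbours did not differ beyond their spread, whereas the steps from Aldoa to Eno1 and from Ldha to Pfkl exceeded both spreads. The values leave out sequence copies, described below, which held a further 60.2 TPM for Eno1, 47.1 TPM for Pgam1 and 24.1 TPM for Pgk1. Whether the step from Aldoa to Eno1 exceeds the spreads with copies added was not tested. The phosphofructokinases and the first hexokinase stood lower: Pfkl had 38.7 ± 13.9 TPM, Pfkp 32.0 ± 15.3 TPM and Hk1 21.0 ± 11.4 TPM, without a gap beyond their spread. Hk2 was lowest at 3.47 ± 0.893 TPM, below Hk1 by more than both spreads. The hexokinases and phosphofructokinases, whose steps spend ATP, were thus listed at lower TPM than the other 6 enzymes. Pkm, which encodes the pyruvate kinase of the last step and is not among the 10, averaged 772 TPM.

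No enzyme was called in any comparison of genotypes in edgeR or DESeq2, whereas limma voom with sample weights called some, and the libraries of each genotype were far from alike. Beginning with the hexokinases, Hk1 had 41.1, 26.4, 106 and 60.6 CPM in deficient replicates 1 to 4, 117, 24.1, 31.0 and 25.6 CPM in heterozygous replicates 1 to 4, and 70.4 and 47.5 CPM in wildtype replicates 1 and 2. Deficient replicate 3 and heterozygous replicate 1 stood well above the rest of their own genotypes, and the highest library held 4.85 times the lowest. Hk2 had 11.4, 10.1, 15.3 and 9.62 CPM in the deficient libraries, 12.1, 5.07, 5.15 and 8.46 CPM in the heterozygous libraries, and 13.2 and 10.9 CPM in the wildtype libraries. Heterozygous replicates 2, 3 and 4 lay below every other library, and heterozygous replicate 1 lay among the rest.

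Among the next enzymes, Gpi1, the isomerase, had 282, 264, 315 and 323 CPM in the deficient libraries, 311, 190, 243 and 203 CPM in the heterozygous libraries, and 270 and 245 CPM in the wildtype libraries. It varied least of the 10, by 1.70 times between the lowest and the highest library. Pfkp, the platelet-type phosphofructokinase, varied most of the 10, by 5.60 times. It had 46.7, 28.6, 121 and 60.0 CPM in the deficient libraries, 101, 21.7, 31.2 and 29.0 CPM in the heterozygous libraries, and 74.0 and 48.1 CPM in the wildtype libraries. As for Hk1, the high libraries were deficient replicate 3 and heterozygous replicate 1. Pfkl, the liver-type form, had 70.7, 44.7, 73.6 and 102 CPM in the deficient libraries, 130, 38.0, 66.7 and 54.1 CPM in the heterozygous libraries, and 68.3 and 76.0 CPM in the wildtype libraries. For Pfkl deficient replicate 4, not replicate 3, was the highest of its genotype.

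Aldoa had 507, 395, 569 and 599 CPM in the deficient libraries, 752, 250, 402 and 296 CPM in the heterozygous libraries, and 479 and 431 CPM in the wildtype libraries. Pgk1 had 175, 158, 204 and 192 CPM in the deficient libraries, 234, 103, 131 and 129 CPM in the heterozygous libraries, and 203 and 172 CPM in the wildtype libraries. In both genes heterozygous replicate 1 was the highest and heterozygous replicate 2 the lowest of the 10 libraries. Pgam1, the phosphoglycerate mutase, had 126, 101, 191 and 138 CPM in the deficient libraries, 215, 60.2, 83.2 and 83.5 CPM in the heterozygous libraries, and 143 and 111 CPM in the wildtype libraries. Eno1, the enolase, had 267, 239, 500 and 351 CPM in the deficient libraries, 407, 150, 244 and 150 CPM in the heterozygous libraries, and 352 and 277 CPM in the wildtype libraries. Both enzymes again peaked in heterozygous replicate 1 and deficient replicate 3. Ldha had 198, 183, 148 and 197 CPM in the deficient libraries, 252, 122, 161 and 165 CPM in the heterozygous libraries, and 205 and 187 CPM in the wildtype libraries. Ldha was the exception in deficient replicate 3, which was the lowest of the deficient libraries rather than the highest.

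**Figure D1:**
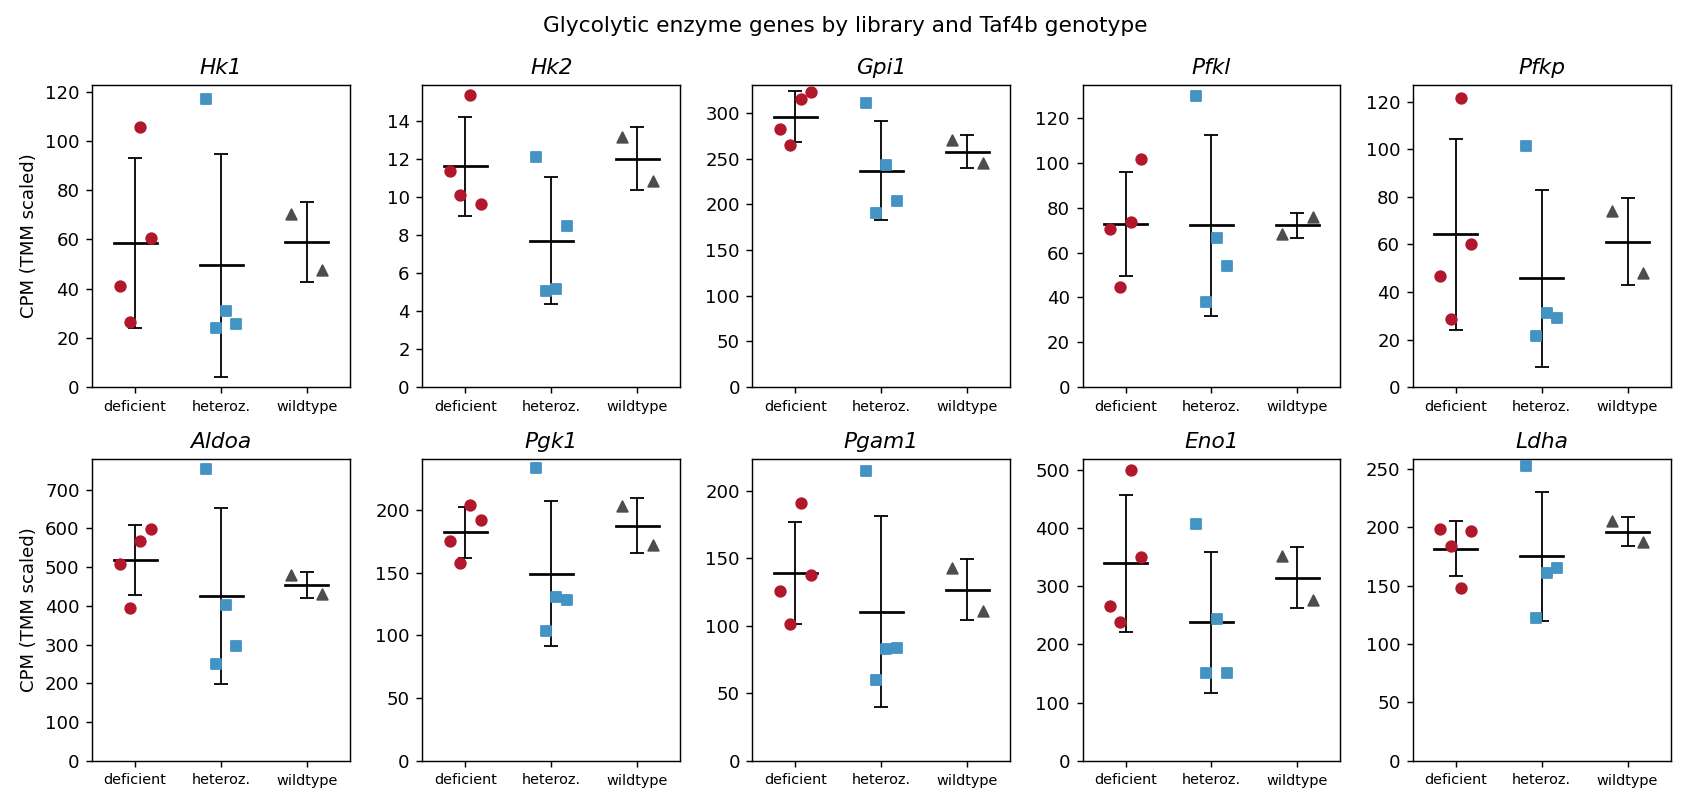
Level of each glycolytic enzyme gene (y axis, CPM after TMM scaling) in every library, by genotype: Taf4b-deficient (n = 4), heterozygous (n = 4) and wildtype (n = 2). Points are libraries, horizontal lines the mean and error bars the SD; the genotypes overlap in every gene, and heterozygous replicate 1 stands apart from the other 3 heterozygous libraries, as in Hk1 at 117 CPM against 24.1 to 31.0 CPM.

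Between deficient and heterozygous libraries all 10 enzymes had a positive fitted log2 difference, and none was called (edgeR's quasi-likelihood test, Benjamini-Hochberg adjusted p under 0.05 over all genes). Of all genes tested 0.0148% were called in this comparison, 0.00984% as higher in deficient libraries. In none of the 10 did the CPM ranges of the 2 genotypes lie apart, which they did in 5.97% of all genes, nor those of deficient and wildtype libraries, which lay apart in 12.6% of all genes. The differences ran from 0.01 for Pfkl to 0.59 for Hk2, with a median of 0.31 beside a median of -0.05 over all genes tested. Eno1 averaged 339 ± 117 CPM in deficient and 238 ± 121 CPM in heterozygous libraries (SD, n = 4 each), a log2 difference of 0.51 (SE 0.33, 95% interval -0.22 to 1.24, edgeR adjusted p = 0.525). Gpi1 had the smallest adjusted p of the 10, 0.442 in edgeR, at 296 ± 27.5 CPM in deficient and 237 ± 54.1 CPM in heterozygous libraries (SD, n = 4 each), a log2 difference of 0.32 (SE 0.16, 95% interval -0.02 to 0.67). Hk2 averaged 11.6 ± 2.59 CPM in deficient and 7.70 ± 3.34 CPM in heterozygous libraries, with an edgeR adjusted p of 0.446. No enzyme had an unadjusted p under 0.05 in edgeR, whereas 2421 of the 20317 genes (11.9%) did. DESeq2 called none either, with 1 enzyme at an unadjusted p under 0.05, in a fit that called 1.1% of all genes. The share of all genes at that unadjusted threshold was not counted in DESeq2.

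With limma voom and sample weights, 5 of the 10 were called higher in deficient than in heterozygous libraries, in a fit that called 18.4% of all genes. That fit differs from edgeR in both its model and its weights, and voom was not run without weights. These were Gpi1 (adjusted p = 0.0161 in limma), Aldoa (0.0209), Eno1 (0.0234), Pgk1 (0.0281) and Pgam1 (0.0392). Without heterozygous replicate 1 the edgeR differences grew to between 0.28 for Ldha and 1.23 for Pfkp, with a median of 0.80, and 8 of the 10 had an unadjusted p under 0.05. None was then called, beside 1.69% of all genes, the lowest edgeR adjusted p being 0.0535 for Pgk1. The share of all genes at an unadjusted p under 0.05 was not counted without heterozygous replicate 1, and was 11.9% with all libraries.

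Between deficient and wildtype libraries the signs of the differences were mixed. Of the 10 enzymes 6 had a positive and 4 a negative log2 difference (Pfkl turned negative with upper quartile scaling), from -0.11 for Ldha to 0.20 for Gpi1, with a median of 0.04 beside 0.0046 over all genes. None was called in edgeR, DESeq2 or limma voom and none had an unadjusted p under 0.05 in any of the 3; 0% of all genes were called in edgeR, with 743 at an unadjusted p under 0.05, and 0.00492% in each of the other tools. Taf4b itself was not called in edgeR in this comparison either, at a log2 difference of -1.56 (edgeR adjusted p = 0.113). For Hk1 the 95% interval of the log2 difference reached from -1.49 to 1.46. That is wide enough to hold a difference of more than 1 log2 unit in either direction.

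Heterozygous libraries had lower fitted values than wildtype libraries in 9 of the 10 enzymes, and in Pfkl too with DESeq2 size factors or upper quartile scaling, again with no call beside a background of 0.00492% of genes. The log2 differences ran from -0.64 for Hk2 (SE 0.35, edgeR adjusted p = 0.702) to 0.00078 for Pfkl, with a median of -0.23 beside 0.02 over all genes. No enzyme reached an unadjusted p under 0.05 in edgeR or in DESeq2, which called 2.28% of all genes. Voom with sample weights called 2 of the 10 lower in heterozygous libraries, Eno1 and Pgk1, beside 8.27% of all genes. Against both fertile genotypes together, deficient libraries had log2 differences from -0.03 for Ldha to 0.31 for Eno1, and none was called or had an unadjusted p under 0.05 in edgeR, where 0.00492% of genes were called. DESeq2 and voom called none in it, beside 0.0394% and 0.00492% of genes, with 0 and 2 enzymes at an unadjusted p under 0.05. The share of all genes at that unadjusted threshold was not counted in either tool. These comparisons share libraries, so their values are not independent of each other.

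The authors' deposited table of DESeq2 output called none of the 10 enzymes. Its log2 fold changes ran from 0.0095 for Ldha to 0.34 for Eno1, with adjusted p-values between 0.805 and 0.996. The table does not name its contrast. A DESeq2 fit of deficient against all fertile libraries with litter date as a term matched it with a median absolute difference of 0.00027 in log2 fold change, which is closer than the other 5 contrasts tried.

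Across the libraries the enzymes followed the meiotic stage. Stage was scored for each library as the mean log2 CPM of 38 tested meiotic genes, such as Sycp3 and Dmc1, minus that of 19 tested pluripotency genes, such as Nanog and Sox2; a higher score means more meiotic and less pluripotency RNA. None of the 10 enzymes is in either list. The score comes from the same libraries as the enzymes, so a slope on it describes genes that vary together. Scores from low to high were -0.80 in heterozygous replicate 1, -0.67 in deficient replicate 3, 0.82 in deficient replicate 4, 0.92 in wildtype replicate 1, 1.29 in wildtype replicate 2 and 1.37 in deficient replicate 1. Deficient replicate 2 followed at 2.48, and heterozygous replicates 3, 4 and 2 ended the series at 2.78, 2.84 and 3.30. Genotype and stage were thus partly confounded, since 3 of the 4 heterozygous libraries had the highest scores. In such bulk samples, fewer cells of a type and less RNA per cell cannot be told apart.

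In a fit with genotype as a term, 9 of the 10 enzymes fell with the stage score. Of all genes 24.5% were called in this fit, 11.8% lower with rising score and 12.7% higher, and the median slope of the 10 was -0.31, beside 0.00074 over all genes. Hk1 had the steepest slope, falling by 0.59 log2 units per unit of score (SE 0.04, edgeR adjusted p = 1.45e-05), or 1.51-fold. Its libraries ran from 117 and 106 CPM at the lowest scores to 31.0, 25.6 and 24.1 CPM at the highest. Pfkp fell by 0.57 (SE 0.04, edgeR adjusted p = 3.05e-05), with 101 and 121 CPM in the libraries of lowest score and 31.2, 29.0 and 21.7 CPM in those of highest score. The isoforms of a step differed in slope: Hk2 fell by 0.24 (SE 0.06, edgeR adjusted p = 0.0186) and Pfkl by 0.32 (SE 0.07, edgeR adjusted p = 0.00836), though the difference between isoforms was not tested. Pfkm, the muscle-type phosphofructokinase, had a slope of 0.07 and stayed between 38.4 and 58.6 CPM (edgeR adjusted p = 0.269).

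Downstream of the sugar phosphates, Pgam1 fell by 0.37 log2 units per unit of score (SE 0.04, edgeR adjusted p = 8.65e-05) and Eno1 by 0.33 (SE 0.05, edgeR adjusted p = 0.000873). Aldoa fell by 0.29 (edgeR adjusted p = 0.00188), Pgk1 by 0.22 (edgeR adjusted p = 0.00148) and Gpi1 by 0.13 (edgeR adjusted p = 0.0145). Ldha was not called, with a slope of -0.12 (SE 0.06, 95% interval -0.24 to 0.01, edgeR adjusted p = 0.158). Without deficient replicate 3, where Ldha was lower than in the other deficient libraries, its slope was -0.20 and was called (edgeR adjusted p = 0.0108), and Hk2 was no longer called (0.0556); 16.7% of all genes were called in that fit. With all libraries, limma voom with sample weights called all 10 enzymes, Ldha included (adjusted p = 0.0448), beside 36.5% of all genes.

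**Figure D2:**
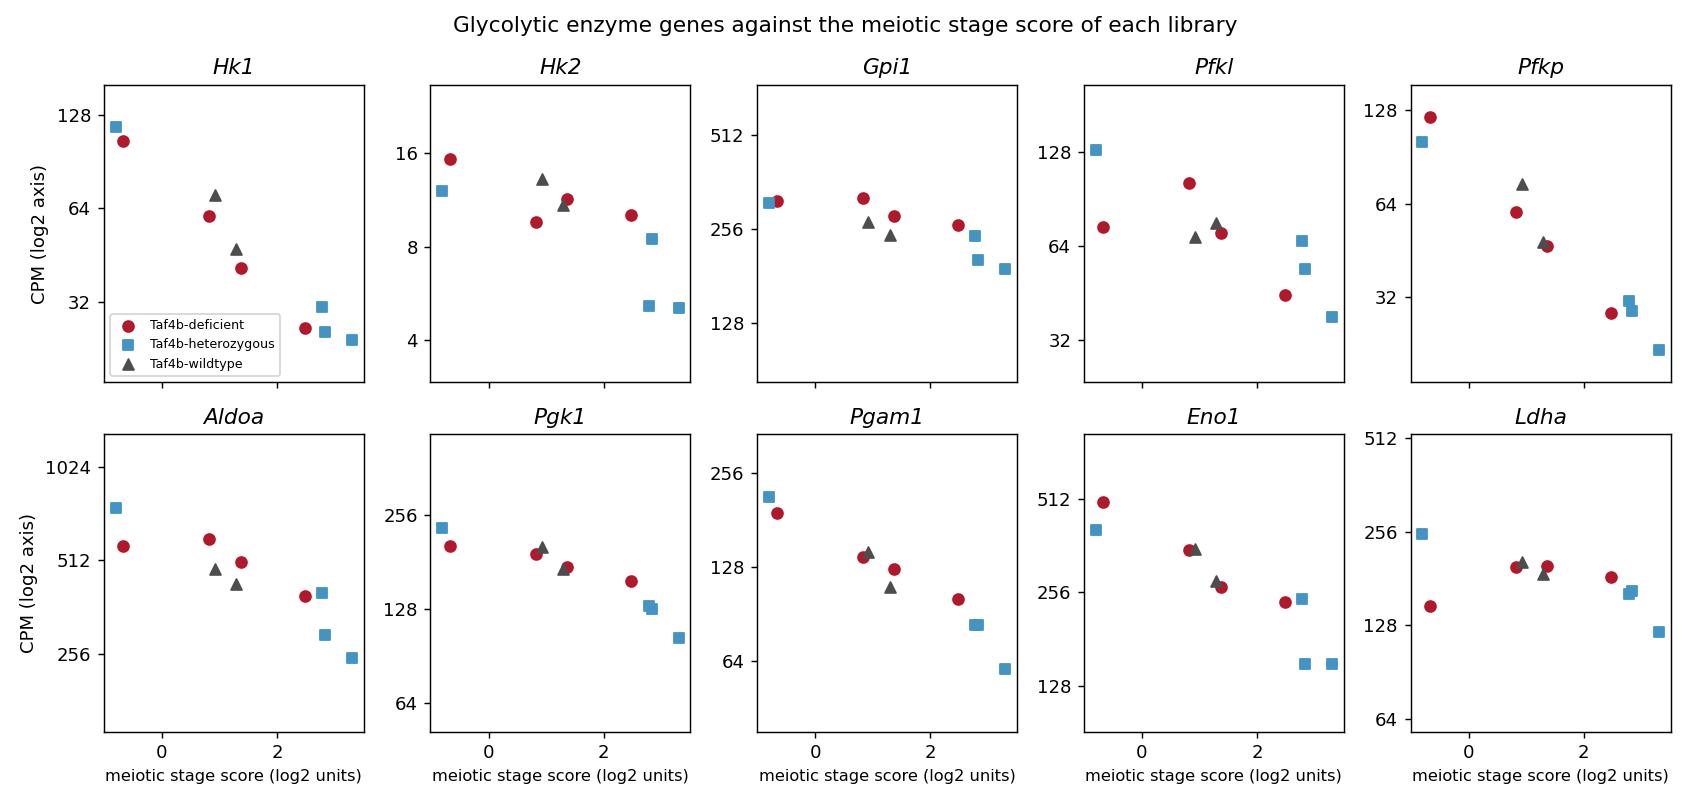
Level of each enzyme gene (y axis, CPM on a log2 axis spanning the same fold range in every panel) against the meiotic stage score of the library (x axis, log2 units); 1 point per library, 10 in all, coloured by genotype. Hk1 and Pfkp have the steepest decline, from over 100 CPM in the libraries with scores of -0.80 and -0.67 to under 32 CPM in those above 2.7, and Ldha has the shallowest.

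The calls on stage rest heavily on the libraries with the lowest scores. Without heterozygous replicate 1, 3 enzymes were still called, Hk1, Pfkp and Pgam1, in a fit that called 725 genes in all (3.57%), against 4983 with that library. Without both low-scoring libraries, heterozygous replicate 1 and deficient replicate 3, no gene was called in edgeR. Of the 10 enzymes 6 had an unadjusted p under 0.05 in that fit. The share of all genes at that threshold was not counted there, and was 36.4% with all libraries. The slopes of all 10 enzymes remained negative, from -0.11 for Hk2 to -0.74 for Pfkl. Without heterozygous replicate 2, at the other end, Hk2 and Gpi1 lost their calls and 7 stayed, beside 19% of all genes. Within each of the 3 litter dates, CPM fell in the order of rising score for 5 of the 10 enzymes, Hk1, Hk2, Pgk1, Pgam1 and Eno1. For the other 5 the order was broken in at least 1 date. The share of all genes that keep this order was not counted. March 1 holds only deficient replicate 3 and wildtype replicate 2. Aldoa had 507 CPM in deficient replicate 1, above the 479 CPM of wildtype replicate 1 with its lower score, and the January order also broke in Gpi1, Pfkl and Pfkp. In the litters of March 1 Ldha had 148 CPM in deficient replicate 3 and 187 CPM in wildtype replicate 2, against the order of the scores, as did Pfkl, and in those of March 7 Gpi1 broke it. Hk1 shows the kept order. Among the litters of January 29, Hk1 had 70.4, 41.1, 26.4 and 25.6 CPM at scores of 0.92, 1.37, 2.48 and 2.84. Those of March 7 had 117, 60.6, 31.0 and 24.1 CPM at scores of -0.80, 0.82, 2.78 and 3.30, and those of March 1 had 106 and 47.5 CPM at -0.67 and 1.29. With litter date as a term 9 of the 10 were called, as without it, in a fit that called 19.9% of all genes.

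Slopes were also fitted within genotypes, a choice made after seeing the data. Within the deficient libraries 9 of 10 enzymes had a negative slope, and 2 were called in edgeR, Pfkp at -0.66 (adjusted p = 0.00661) and Hk1 at -0.64 (0.00779); 1.73% of genes were called in that fit. Within the heterozygous libraries all 10 slopes were negative and 8 were called, all but Hk2 and Gpi1, beside 11.7% of genes. With heterozygous scores of -0.80 in replicate 1 and 2.78, 2.84 and 3.30 in the other libraries, that slope in effect sets replicate 1 against the other 3, and 1 library has no replicate of its own. The difference between the slopes was called for none of the 10 and for 0% of genes in edgeR, where 339 genes had an unadjusted p under 0.05. Ldha alone had an unadjusted p under 0.05 for it: its slope was 0.11 in deficient and -0.21 in heterozygous libraries, a difference of 0.32 (SE 0.09, edgeR adjusted p = 1). With stage as a covariate, the deficient minus heterozygous difference was positive for 6 and negative for 4 of the 10, with a median of 0.09, and none was called in edgeR or had an unadjusted p under 0.05.

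Among the markers of other cells, the list of endothelial markers summed to 70.3 to 387 CPM and was highest in the libraries of lowest stage score, heterozygous replicate 1 (387 CPM) and deficient replicate 3 (378 CPM). Nearly all of this was Pecam1, at 164, 89.9, 373 and 207 CPM in the deficient libraries, 380, 64.8, 91.9 and 82.3 CPM in the heterozygous libraries and 222 and 171 CPM in the wildtype libraries. Pecam1 is also expressed by early germ cells, and the other 4 endothelial markers together reached no more than 8.01 CPM in any library. Blood and macrophage markers (10 of 10 detected) summed to 16.2 to 27.5 CPM in deficient, 6.38 to 13.5 CPM in heterozygous and 13.5 to 17.1 CPM in wildtype libraries, and red cell markers to 0.419 to 15.3, 0.837 to 11.6 and 14.4 to 15.6 CPM in the same genotypes. The blood and macrophage sum was lowest, at 6.38 CPM, in heterozygous replicate 1, where red cell markers summed to 11.6 CPM. That library was the highest of the 10 for Hk1, Pfkl, Aldoa, Pgk1, Pgam1 and Ldha. In deficient replicate 3 blood and macrophage markers summed to 23.7 CPM and red cell markers to 0.591 CPM. The part of the Pecam1 signal in the enzyme levels was not tested. Reads resembling ribosomal RNA (Gm23935 and Lars2) ranged from 721 to 22056 CPM and 3 libraries were low in Gm23935, namely heterozygous replicate 3 and deficient replicates 2 and 4; without them, 9 of the 10 slopes were called, in a fit that called 33% of all genes.

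The 10 enzymes followed a common course over the libraries to different degrees. The correlation of a gene's log2 CPM with the mean of the other 9, over the 10 libraries, was highest for Pgk1 at 0.985 and Pgam1 at 0.982. It was lowest for Ldha at 0.680 and Hk2 at 0.781. The most similar genes were sought among tested genes outside the lists used here, with a mean of at least 5 CPM. Genes with Gm, Rik or clone symbols were left out. The 5 nearest to the mean of the enzymes over these libraries were A4galt (Pearson r = 0.998), Gstm3 (0.987), Syt5 (0.987), Cyp20a1 (0.984) and Ptpn22 (0.983). These values describe 10 libraries that share a stage gradient.

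Counts for the rest of the pathway are read beside the 24.5% of all genes called on the stage score, 11.8% lower and 12.7% higher. Of 22 other glycolytic enzyme genes 18 were tested, and 5 fell and 1 rose with the score, with a median slope of 0.0014; 6 of 18 is not far from that share. Those that fell were Pkm at -0.22 (SE 0.04, edgeR adjusted p = 0.00268), the enolase copy Eno1b at -0.35, the lactate dehydrogenase subunit Ldhb at -0.21, the triose phosphate isomerase Tpi1 at -0.18 and the muscle-type mutase Pgam2 at -0.31. The germ cell form Ldhc rose by 0.25 (edgeR adjusted p = 0.0465). Eno1b matches Eno1 at 99.5% identity over 1736 bases, and how far its reads are its own was not tested. Among 22 genes of glucose and lactate transport and of control of the pathway, 8 fell and 1 rose, with a median of -0.10. The glucose transporters Slc2a1 and Slc2a3 both fell by 0.21, and Pfkfb3, whose product makes the activator of phosphofructokinase, fell by 0.63 (SE 0.06, edgeR adjusted p = 7.10e-05). Pdk4, which restrains pyruvate dehydrogenase, fell by 0.53, and Tigar, which lowers the same activator, fell by 0.30. The monocarboxylate transporter Slc16a7 rose by 0.84 (SE 0.07, edgeR adjusted p = 3.23e-05).

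The lists that follow are small, and their counts too stand beside 12.7% of all genes called higher and 11.8% called lower. Of 9 genes for the entry of pyruvate into mitochondria 3 rose and 1 fell. The pyruvate carrier subunit Mpc2 rose by 0.21, the testis-type dehydrogenase subunit Pdha2 by 0.53 and the pyruvate carboxylase Pcx by 0.20, while Pdha1, the somatic form, fell by 0.19. Of 10 tested genes of the pentose phosphate route 3 rose, Tktl1 by 0.76, G6pdx by 0.24 and Tktl2 by 0.16, and the transketolase Tkt fell by 0.16. Among 4 tested gluconeogenesis genes G6pc3 rose by 0.19. In the comparisons of genotypes none of the 63 tested genes of these lists was called in edgeR; 4 had an unadjusted p under 0.05 in deficient against heterozygous libraries. The smallest p-values in deficient against heterozygous libraries were those of Pcx at -0.77 (edgeR adjusted p = 0.346), Taldo1 at 0.41 (edgeR adjusted p = 0.369) and Gapdh at -1.44 (edgeR adjusted p = 0.383), before Tkt at 0.38 (edgeR adjusted p = 0.410). Fbp1 had 1.15, Fbp2 0.69, Eno1b 0.69, Pdk1 0.49, Bsg -0.34 and Dlat -0.23 as log2 differences there.

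**Figure D3:**
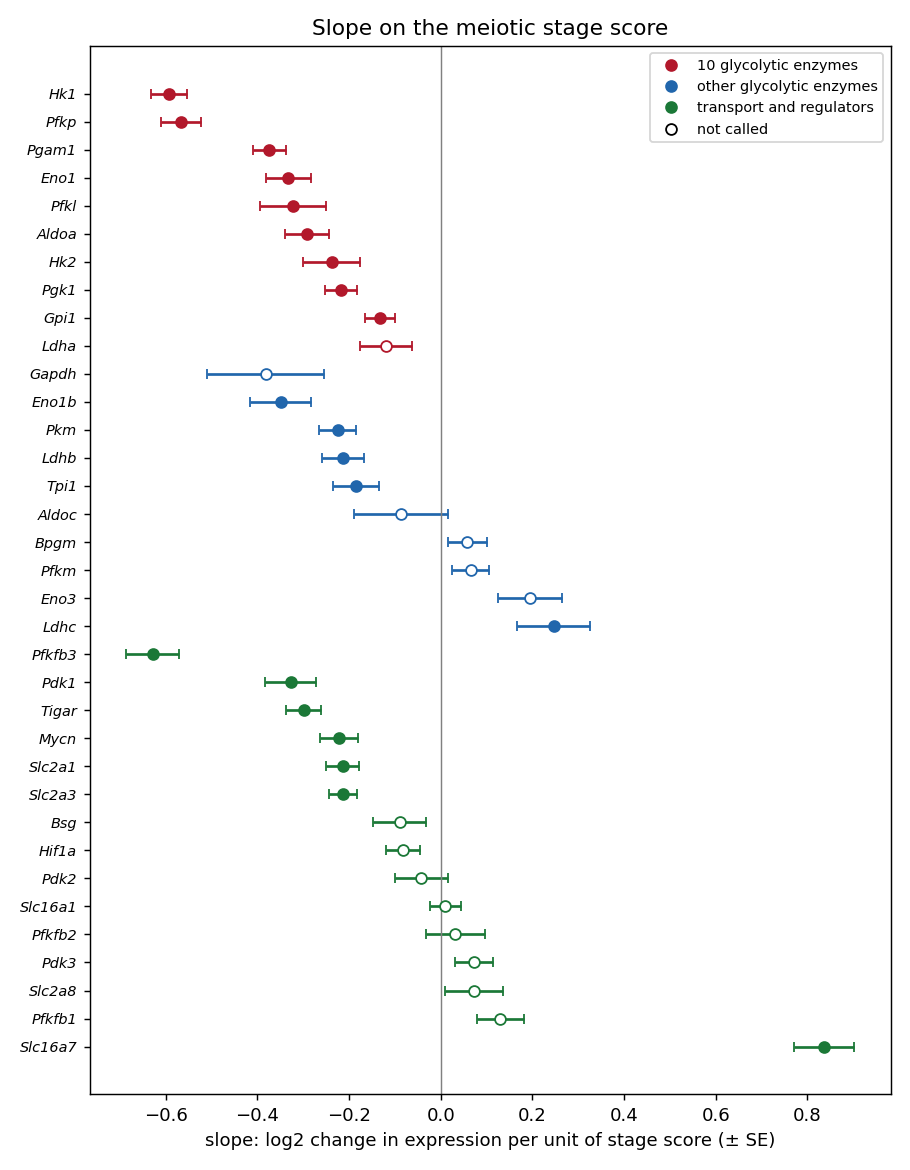
Slope of each gene on the meiotic stage score (x axis, log2 change per unit of score, with SE) for the 10 glycolytic enzymes, other glycolytic enzyme genes and genes of transport and regulation with at least 5 TPM on average; filled points were called in edgeR. The 10 enzymes all lie left of 0, from -0.59 for Hk1 to -0.12 for Ldha, while other genes of the pathway lie on both sides.

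Counts and TPM can part ways where a gene has processed copies elsewhere in the genome, since a read that fits several places may be dropped, shared or given to one of them. Copies were sought by aligning each spliced transcript of GENCODE M21 (build GRCm38) to the others, taking matches of at least 85% identity over at least 200 coding bases. Hk1, Hk2, Pfkl and Pfkp had none. Gpi1 had 1, Pgam1 4, Pgk1 7, Aldoa 9, Eno1 12 and Ldha 26. All are annotated as pseudogenes except 2 of the Aldoa copies and 1 of the Eno1 copies, the gene Eno1b.

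The sequences shown are of Pgam1 and Eno1, the genes whose copies took the largest shares of TPM. Pgam1-ps2 (chr7:27469771-27470535, minus strand) matches all 765 coding bases of Pgam1 (chr19:41911923-41918660, plus strand), all in build GRCm38. The stretch shown, coding bases 124 to 243 of Pgam1, is the same letter for letter in Pgam1-ps2 and differs in Pgam1-ps1 (chr11:21683308-21684056, minus strand) at the bases in capitals (G142A and C206T, counted from the first coding base of Pgam1). Over 743 aligned coding bases Pgam1-ps1 had 21 mismatches.
Pgam1: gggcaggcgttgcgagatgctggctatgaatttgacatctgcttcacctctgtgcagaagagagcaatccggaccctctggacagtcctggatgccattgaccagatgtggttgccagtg
Pgam1-ps2: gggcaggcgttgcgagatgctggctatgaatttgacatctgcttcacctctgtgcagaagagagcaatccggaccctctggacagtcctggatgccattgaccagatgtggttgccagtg
Pgam1-ps1: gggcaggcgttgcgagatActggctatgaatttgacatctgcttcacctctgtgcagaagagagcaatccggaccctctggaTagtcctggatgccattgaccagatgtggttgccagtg

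Among the Eno1 (chr4:150236721-150248879, plus strand) pseudogenes, Gm4735 (chr2:80837141-80838442, plus strand) has 5 mismatches in 1302 coding bases and none in the 120 bases shown. Gm8483 (chr14:14447661-14448944, minus strand) differs at 56 of 1284. Its 5 differences in the first 120 coding bases, in capitals, are G26A, C43T, C94A, C101T and C107T.
Eno1: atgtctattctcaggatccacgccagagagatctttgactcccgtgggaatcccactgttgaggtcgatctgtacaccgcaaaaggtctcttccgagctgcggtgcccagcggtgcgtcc
Gm4735: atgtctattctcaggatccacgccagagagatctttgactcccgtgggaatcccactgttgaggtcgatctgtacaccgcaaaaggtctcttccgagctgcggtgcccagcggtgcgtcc
Gm8483: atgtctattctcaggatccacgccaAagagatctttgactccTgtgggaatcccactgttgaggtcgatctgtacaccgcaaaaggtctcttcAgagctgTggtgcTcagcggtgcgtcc

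For Pgam1, Eno1 and Pgk1 the copies took a larger share of the signal in TPM than in counts. Each of these genes has at least 1 copy that matches nearly all of its coding bases. CPM takes no account of length and TPM does, so a copy shorter than its gene weighs more in TPM. The part of length in the shares given here was not tested. For Eno1 and its copies together, the copies took 20.7% of TPM and 4.30% of CPM. Pgam1 copies took 19.5% of TPM and 2.81% of CPM, and Pgk1 copies 10.4% of TPM and 1.26% of CPM. Pgam1-ps2 by itself stood at 45.8 TPM but 3.52 CPM, and Gm4735 at 29.1 TPM but 5.89 CPM. Pgk1-rs7, with no mismatch in the 1253 coding bases compared with Pgk1, stood at 12.7 TPM. For Ldha, whose 26 copies are more diverged, the shares were 2.30% and 1.05%, for Gpi1 1.24% and 0.762%, and for Aldoa 0.339% and 0.133%. Of all 100-base windows of the transcript, 67.0% in Pgk1, 59.0% in Eno1 and 39.7% in Pgam1 occur unchanged in a copy, against 1.28% in Ldha and 0% in Aldoa. The levels of Pgk1, Eno1 and Pgam1 are therefore uncertain in both tables. The sources used here give neither the read length nor the treatment of reads with several matches.

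Gapdh, a glycolytic enzyme gene outside the 10, is the extreme case: 282 copies met the same rule, 273 of them annotated as pseudogenes. Gapdh itself averaged 8.63 CPM and 19.2 TPM. Its copies summed to 135 CPM and 1945 TPM, or 94.0% of counts and 99.0% of TPM. That sum takes in whole genes that match only in part, such as the protein-coding Peli2 at 8.98 CPM and 3.30 TPM. Gapdh had 5.01, 3.93, 5.95 and 5.35 CPM in the deficient libraries, 30.9, 14.8, 4.60 and 4.43 CPM in the heterozygous libraries, and 6.94 and 4.34 CPM in the wildtype libraries. Only heterozygous replicates 1 and 2 exceeded 10 CPM, and these libraries lie at opposite ends of the stage score. Gapdh and its copies together had 2136, 1948, 2370 and 2151 TPM in the deficient libraries, 2407, 1407, 1488 and 1538 TPM in the heterozygous libraries, and 2212 and 1986 TPM in the wildtype libraries. The TPM of Gapdh and its copies together was highest in heterozygous replicate 1 and deficient replicate 3, as for Hk1, Pfkp, Pgam1 and Eno1.

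**Figure D4:**
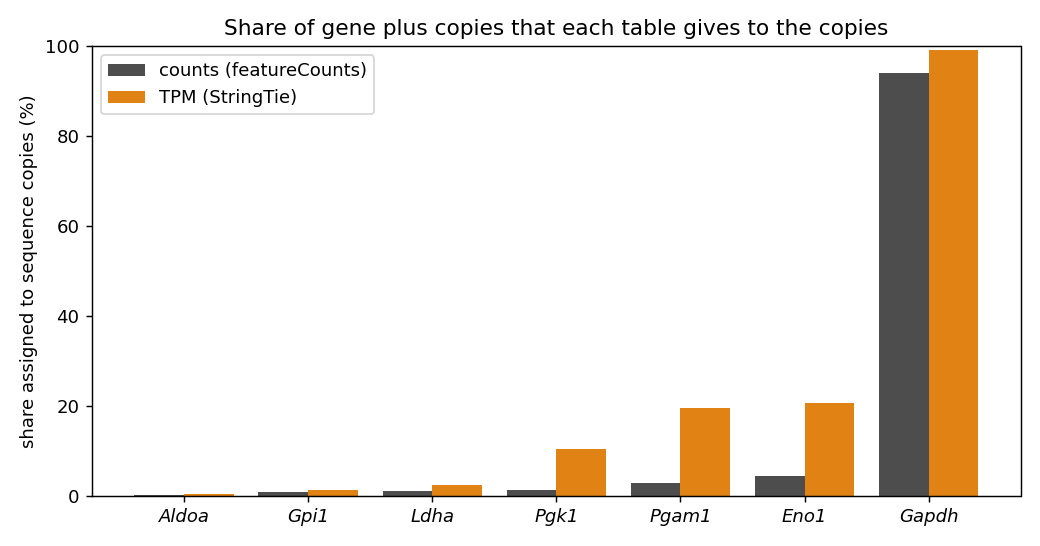
Share of the summed signal of a gene and its sequence copies that went to the copies (y axis, percent, mean of 10 libraries) in the count table and in the TPM table, for the 6 of the 10 enzymes with copies and for Gapdh. The shares differ most for Eno1 (4.30% of counts, 20.7% of TPM) and Pgam1 (2.81% and 19.5%). Counts are not corrected for length and TPM is, so the shares are not on a like scale.

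Disagreement from library to library was not limited to genes with copies. The ratio of TPM to CPM varied most in Pfkp, with an SD of 0.28 on the log2 scale over the 10 libraries, then in Pgam1 (0.20) and Hk1 (0.16), beside a median of 0.11 over 10881 genes at 5 CPM or more. Pfkp and Hk1 have no copies by the rule used. For Pfkp the ratio was 0.453 in deficient replicate 3 and 0.817 in heterozygous replicate 3. In TPM, Pfkp had 25.6, 13.5, 54.9 and 37.0 TPM in the deficient libraries, 58.2, 14.3, 25.5 and 22.5 TPM in the heterozygous libraries, and 38.1 and 29.8 TPM in the wildtype libraries. Its deficient minus heterozygous log2 difference was 0.14 in TPM (plus 0.1) and 0.49 in counts. For Pgam1, Eno1 and Pgk1 the same differences were 0.29, 0.48 and 0.27 in TPM and 0.33, 0.51 and 0.29 in counts.

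On the stage score all 10 slopes in TPM had the same sign as in counts and were nearer to 0. In limma on log2(TPM + 0.1), Hk1 had a slope of -0.53 (adjusted p = 0.00111), Pfkp -0.49 (0.00244), Eno1 -0.30 (0.0129), Pgam1 -0.29 (0.00589), Aldoa -0.25 (0.0282), Hk2 -0.19 (0.0449) and Pgk1 -0.18 (0.0260). Pfkl at -0.28 (adjusted p = 0.0707 in limma) and Gpi1 at -0.09 (0.207) were not called in this fit, in which 7 of the 10 and 18.8% of 18716 genes were called, against 9 in the edgeR fit of counts. The fits differ in tool and gene filter as well as in the table used. Of the genes called in the edgeR fit of counts but not in the limma fit of TPM, Pfkl has no copies and Gpi1 has 1.

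The promoters of the enzymes were searched for short motifs, because 9 of the 10 genes fell on the stage score. Sequences are RefSeq promoters of build GRCm38.p6, the 250 bases before each annotated start; all 10 genes matched, with 16 promoters. The core of the hypoxia response element, ACGTG or GCGTG, was searched on both strands like the other motifs. It occurred in 13 of the 16 promoters, covering every gene except Gpi1, and in 38.6% of all 32851 promoters of that length. Both forms of the core contain CG, and the promoters compared were not matched for base composition. Some of the 16 are starts of the same gene. The E-box CACGTG, which contains that core, occurred in 1 promoter of Ldha and in 6.02% of all promoters. The GC box GGGCGG occurred in 9 of the 16 (32.7% of all promoters), CCAAT in 7 (33.8%) and TATAAA in 0 (12.4%). A match describes these letters and says nothing of a factor or its binding. Shown are Pfkp and Pgam1, which have steep slopes, Pgk1, which is nearest to the common course, and Ldha, which was not called. Each window is that of the start farthest upstream, and capitals mark the hypoxia response core on either strand. At that start Hk1, which had the steepest slope, Aldoa and Gpi1 had no match to the core. Hk1 and Aldoa matched only at another start. The Pfkp window lies at chr13:6648772-6649021 on the minus strand. On the plus strand lie those of Pgk1 at chrX:106186850-106187099, Pgam1 at chr19:41911621-41911870 and Ldha at chr7:46845554-46845803.
Pfkp promoter: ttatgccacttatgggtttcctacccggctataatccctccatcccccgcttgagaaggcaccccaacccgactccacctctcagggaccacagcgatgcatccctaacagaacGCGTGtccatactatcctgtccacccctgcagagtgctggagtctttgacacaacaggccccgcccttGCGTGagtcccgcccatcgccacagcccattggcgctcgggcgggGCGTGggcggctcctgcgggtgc
Pgk1 promoter: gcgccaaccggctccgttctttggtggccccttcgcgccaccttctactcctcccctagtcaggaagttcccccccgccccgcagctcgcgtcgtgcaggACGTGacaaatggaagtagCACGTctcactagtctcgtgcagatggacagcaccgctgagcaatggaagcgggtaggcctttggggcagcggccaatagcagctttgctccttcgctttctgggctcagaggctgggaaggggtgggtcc
Pgam1 promoter: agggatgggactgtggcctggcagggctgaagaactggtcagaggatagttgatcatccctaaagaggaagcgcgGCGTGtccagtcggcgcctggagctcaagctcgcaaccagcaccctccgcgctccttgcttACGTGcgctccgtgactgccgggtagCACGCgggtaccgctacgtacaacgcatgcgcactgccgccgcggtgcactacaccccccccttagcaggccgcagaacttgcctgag
Ldha promoter: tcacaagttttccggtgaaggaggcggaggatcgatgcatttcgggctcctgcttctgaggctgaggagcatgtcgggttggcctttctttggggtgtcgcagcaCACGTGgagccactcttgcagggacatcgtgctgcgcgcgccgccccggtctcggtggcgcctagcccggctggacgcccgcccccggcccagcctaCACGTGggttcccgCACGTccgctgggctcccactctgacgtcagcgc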

How the data were processed

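The authors' count table holds reads per gene from featureCounts (Subread 1.6.2), and the authors' TPM table comes from StringTie 1.3.3b. The submitters' processing notes name these tools and versions, and also HISAT2 2.1.0 with build GRCm38, SAMtools 1.9, Trim Galore 0.5.0 and FastQC 0.11.5. Settings for strand, read length and multi-mapping are not given in these sources. One deposited DESeq2 table gives, per the file headers, a mean signal over libraries, the log2 fold change with SE, a Wald score, and raw and adjusted p-values. All 55536 genes matched GENCODE M21 by identifier.

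From the counts, edgeR 4.0.16 (R 4.3.3) was run with filterByExpr, TMM and a quasi-likelihood fit of 3 genotypes over 10 libraries. A second fit added the stage score (prior count of 2). The threshold for a call was 0.05 after Benjamini-Hochberg adjustment over all genes tested, and edgeR p-values are meant unless another tool is named. SE was derived from the F statistic and 95% intervals from the t distribution. Alternatives used DESeq2 1.42.0, limma 3.58.1 (voom, and log2 TPM plus 0.1 or 1 for genes with a mean TPM of at least 0.5), other scalings, litter date, replicate number, and each library left out. Copies were found with blastn 2.17.0. The test was checked on simulated counts.

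The 10 members and all lists were chosen with earlier results of these data known. Named besides them are Taf4b, called list genes (up to 6 by p, otherwise the 2 smallest), and the 5 genes most alike with a mean of at least 5 CPM. For genotypes the list genes are given for deficient against heterozygous libraries. Pfkm, Pecam1, Gm23935, the copies and the levels of Gapdh were chosen after their values were seen.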

Additional observations from a re-analysis of the deposited data

Results flagged for a closer look

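In 3 of 20 gene and genotype groups of 4 libraries, heterozygous replicate 1 stood farther from the other libraries of its genotype than Dixon's 95% limit allows. Chance would give about 1 in 20 if the groups were independent. They are not, since all 3 flags fall on the same library and the enzymes vary together over the libraries. Hk1 had 117 CPM in that library, with 31.0 CPM in the nearest of the others. Pfkp had 101 CPM there, with 31.2 CPM in the nearest. Pgam1 had 215 CPM there, with 83.5 CPM in the nearest. It is the library with the lowest stage score (-0.80) and the highest summed endothelial markers (387 CPM); the part of either in these values was not tested.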

How the results depend on the processing

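The count of enzymes called in comparisons of genotypes remained 0 under every alternative except limma voom with sample weights, which gave 5 in deficient against heterozygous and 2 in heterozygous against wildtype libraries. On the stage score the count was 9 with all libraries, 3 to 9 with each library left out, 5 in TPM plus 0.1 with no filter (beside 7.01% of genes), and 0 without the 2 libraries farthest from the median score, where 8 libraries remained. The cause of the other differences was not tested. With 4, 4 and 2 libraries, intervals for genotype are wide, and the stage calls depend on 2 libraries. Alternatives added after seeing the data were the stage covariate, the Gm23935 covariate, and leaving out the 3 libraries low in Gm23935 or the 2 far in score.

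With replicate number as a block the stage score count was 4 (Pgam1, Pfkp, Hk1 and Eno1), in a fit that called 6.44% of all genes. The numbers were not taken to pair libraries, since same-numbered deficient and heterozygous libraries had correlations of their deviations from -0.42 to 0.38, with 1 of 4 over 0.1.

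The log2 differences of single enzymes that changed sign, none of them called with all libraries, follow. For deficient against heterozygous, Pfkl gave -0.20 with the stage covariate, -0.037 with the 3 libraries left out. Pfkp gave -0.0094 with the stage covariate. Hk1 gave -0.20 with the stage covariate. Ldha gave -0.018 with the stage covariate, -0.055 with the 3 libraries left out.

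For deficient against wildtype, Pfkl gave -0.016 with upper quartile scaling, -0.026 with voom, -0.13 with litter date, -0.19 with the replicate block, -0.032 with TPM plus 0.1, -0.030 with TPM plus 1, -0.032 with TPM plus 0.1 and no filter, -0.0062 with only the libraries compared, -0.043 with the stage covariate, -0.0079 with the Gm23935 covariate. Pfkp gave -0.24 with voom, -0.14 with litter date, -0.17 with the replicate block, -0.22 with TPM plus 0.1, -0.20 with TPM plus 1, -0.22 with TPM plus 0.1 and no filter, -0.17 with the stage covariate. Eno1 gave -0.048 with voom. Hk2 gave 0.027 with litter date, 0.15 with the 3 libraries left out, 0.20 with the Gm23935 covariate. Hk1 gave 0.32 with the 3 libraries left out, 0.27 with the Gm23935 covariate. Pgk1 gave 0.016 with the 3 libraries left out, 0.029 with the Gm23935 covariate.

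For heterozygous against wildtype, Pfkl gave -0.020 with DESeq2 size factors, -0.073 with upper quartile scaling, -0.042 with no count filter, -0.020 with DESeq2, -0.51 with voom, -0.39 with litter date, -0.25 with the replicate block, -0.035 with TPM plus 0.1, -0.032 with TPM plus 1, -0.035 with TPM plus 0.1 and no filter, -0.010 with the Gm23935 covariate. Gpi1 gave 0.039 with TPM plus 0.1, 0.039 with TPM plus 1, 0.039 with TPM plus 0.1 and no filter. Aldoa gave 0.053 with the stage covariate.

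For deficient against both fertile genotypes, Ldha gave 0.0060 with no count filter, 0.12 with voom, 0.017 with the replicate block. Pfkl gave -0.063 with the replicate block, -0.015 with TPM plus 0.1, -0.014 with TPM plus 1, -0.015 with TPM plus 0.1 and no filter, -0.12 with the stage covariate, -0.018 with the 3 libraries left out, -0.0028 with the Gm23935 covariate. Pfkp gave -0.038 with TPM plus 0.1, -0.034 with TPM plus 1, -0.038 with TPM plus 0.1 and no filter, -0.087 with the stage covariate. Hk1 gave -0.22 with the stage covariate.

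With each library left out in turn, the enzymes that changed sign ranged as follows. In deficient against heterozygous libraries they ran from -0.20 to 0.46 for Pfkl, -0.0034 to 1.23 for Pfkp, -0.19 to 1.12 for Hk1 and -0.044 to 0.28 for Ldha. In deficient against wildtype libraries they ran from -0.21 to 0.091 for Hk2, -0.053 to 0.32 for Pgam1, -0.20 to 0.19 for Pfkl, -0.43 to 0.41 for Pfkp, -0.46 to 0.29 for Hk1, -0.16 to 0.077 for Pgk1 and -0.14 to 0.29 for Eno1. In heterozygous against wildtype libraries they ran from -0.45 to 0.18 for Pfkl, -0.53 to 0.054 for Aldoa and -1.13 to 0.041 for Hk1. In deficient against both fertile genotypes they ran from -0.20 to 0.23 for Pfkl, -0.22 to 0.65 for Pfkp, -0.33 to 0.55 for Hk1 and -0.075 to 0.085 for Ldha. The slope on the stage score ran from -0.20 to 0.071 for Ldha.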
